A study of Mus musculus with 2 samples.

Results

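The genes described are Cybb, Cyba, Ncf1, Ncf4, Rac2 and Hvcn1, which encode parts of the phagocyte NADPH oxidase and the proton channel that works beside it. They are the 6 rows, of the 32285 genes counted, whose symbol matches a member name in both count matrices. The rows were matched by name, but the members were chosen with earlier results of these data known. All 6 had UMIs in both libraries.

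The phagocyte NADPH oxidase moves electrons from NADPH across a membrane to oxygen and so makes superoxide, the source of the respiratory burst with which neutrophils and macrophages attack microbes. At rest its parts are apart: the membrane holds a flavocytochrome made of gp91phox (Cybb) and p22phox (Cyba), while p47phox (Ncf1) and p40phox (Ncf4) wait in the cytosol. On activation p47phox is phosphorylated and brings the cytosolic parts to the membrane, where the GTPase Rac2 switches the enzyme on and the channel HV1 (Hvcn1) lets protons out to balance the charge. Inherited loss of the oxidase causes chronic granulomatous disease, in which bowel inflammation is common.

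The samples were immune cells taken from the colon of C57BL/6 mice in which colitis had been induced experimentally, profiled by 10x 3′ single-cell RNA sequencing in 1 library labelled CKO and 1 library labelled WT. The study title concerns loss of RPA1 and necroptosis of T cells; the labels do not say which cells carry the deletion, by which Cre, or how many mice each library holds. After filters on genes and mitochondrial UMIs and removal of marked doublets, 10942 cells labelled CKO and 2924 cells labelled WT were kept. Median depths before these steps were 3338 UMIs per barcode labelled CKO and 4083 labelled WT. With 1 library a condition no test between conditions was possible; intervals are exact 95% intervals that cover counting error only, and mouse-to-mouse spread is not in them.

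Rpa1, which encodes a subunit of the single-strand DNA binding protein RPA, had 159 UMIs (55.3 CPM) in T-like cells labelled CKO and 88 UMIs (40.5 CPM) in T-like cells labelled WT. Its level was thus not lower in the T-like cells labelled CKO, and the library is called by its label throughout. Counting from the 3′ end does not see an exon deleted upstream, so these values do not check the label. The libraries also differed in make-up: neutrophil-like cells were 16.5% of cells labelled CKO and 6.19% of cells labelled WT, and monocyte and macrophage-like cells 5.55% and 0.513%. Clusters without a leading class held 1.89% of cells labelled CKO and 18.5% of cells labelled WT, and droplets of mixed classes 14.0% and 12.5%. The libraries share 6 cell barcodes.

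Cell classes rest on fixed marker lists, and each is written as X-like. All 16 neutrophil markers had UMIs in the neutrophil-like cells of both libraries, summing to 186844 CPM in those labelled CKO and 99757 CPM in those labelled WT. In the monocyte and macrophage-like cells labelled CKO, all 18 markers of that list had UMIs and summed to 18998 CPM. The B-like class held all 15 B cell markers, at 8431 CPM in cells labelled CKO and 8612 CPM in cells labelled WT. Clusters were built without the 6 oxidase genes.

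On the GRCm38 genome with GENCODE vM21 genes, Cybb (ENSMUSG00000015340) is on chromosome X, minus strand, 9435252 to 9487771, with 13 exons. Cyba (ENSMUSG00000006519) is on chromosome 8, minus strand, 122424776 to 122432930, with 6 exons. Ncf1 (ENSMUSG00000015950) is on chromosome 5, minus strand, 134220053 to 134229625, with 11 exons, and overlaps Gtf2ird2 on the other strand. Ncf4 (ENSMUSG00000071715, plus strand, 78244801 to 78262580, 10 exons) and Rac2 (ENSMUSG00000033220, minus strand, 78559167 to 78572783, 7 exons) both lie on chromosome 15. Hvcn1 (ENSMUSG00000064267) is on chromosome 5, plus strand, 122206804 to 122242297, with 8 exons, and overlaps Tctn1 on the other strand. No source used here says whether counting used the strand, so reads of Ncf1 and Gtf2ird2, or of Hvcn1 and Tctn1, could be shared.

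Cybb is known as a target of the ETS factor PU.1 (Spi1), which binds a purine-rich PU box, and the windows around the start sites of the 3 members with a RefSeq promoter on GRCm38.p6 are shown for that reason. Each holds 250 bases before and 50 bases after the RefSeq start site, printed on the gene's own strand, with the PU box core GAGGAA or its reverse complement TTCCTC in capitals:
Cybb, chrX:9469275-9469574, minus strand: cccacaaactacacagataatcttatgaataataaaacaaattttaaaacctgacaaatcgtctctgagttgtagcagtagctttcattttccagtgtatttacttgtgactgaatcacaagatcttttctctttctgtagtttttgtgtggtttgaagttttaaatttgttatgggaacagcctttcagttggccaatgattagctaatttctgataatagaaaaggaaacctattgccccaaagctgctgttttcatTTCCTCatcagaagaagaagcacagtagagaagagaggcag
Cyba, chr8:122432891-122433190, minus strand: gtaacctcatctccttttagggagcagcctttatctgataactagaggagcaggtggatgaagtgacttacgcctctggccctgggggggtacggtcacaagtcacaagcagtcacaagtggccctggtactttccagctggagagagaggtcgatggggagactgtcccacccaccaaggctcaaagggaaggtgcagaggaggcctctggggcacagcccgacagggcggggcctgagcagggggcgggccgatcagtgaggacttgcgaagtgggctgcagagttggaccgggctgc
Ncf1, chr5:134229576-134229875, minus strand: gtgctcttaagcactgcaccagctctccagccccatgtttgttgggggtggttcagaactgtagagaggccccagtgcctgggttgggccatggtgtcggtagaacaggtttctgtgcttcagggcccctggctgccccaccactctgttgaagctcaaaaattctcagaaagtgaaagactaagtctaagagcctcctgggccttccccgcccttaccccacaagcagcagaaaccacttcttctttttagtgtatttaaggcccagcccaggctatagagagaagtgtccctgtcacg
The Cybb window held 1 match, as TTCCTC, starting 9 bases after the RefSeq start site. The Cyba and Ncf1 windows held 0. Among 32851 mouse promoter windows of the same 300 bases, 9289 (28.3%) held a match on either strand, so a match in 1 of the 3 windows is near the share of all promoters. RefSeq starts Cybb inside the longer GENCODE gene.

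Levels are UMIs per 1000000 UMIs (CPM), summed over the cells of a class. A UMI of a 3′ library marks 1 captured transcript end whatever the transcript's length, so levels are set beside each other between genes on this scale, without a correction for capture.

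Cybb, the catalytic subunit that carries the electrons, had its highest levels in myeloid cells. Plasmacytoid dendritic-like cells labelled CKO had 1568 CPM (1360 to 1798, 22 cells). The monocyte and macrophage-like cells labelled CKO had 1357 CPM (1324 to 1391, 607 cells). These 2 intervals overlap. The library labelled WT held 15 monocyte and macrophage-like cells, with 1335 CPM of Cybb, a number of cells too small to compare. B-like cells came next, at 480.1 CPM (469 to 491) in those labelled CKO and 384 CPM (367 to 402) in those labelled WT. Dendritic-like cells had 340.2 CPM labelled CKO and 164 CPM labelled WT. Neutrophil-like cells stood below B-like cells in both libraries, at 215 CPM (203 to 228) labelled CKO and 93.3 CPM (65.3 to 129) labelled WT. Plasma-like cells had 112 and 98.9 CPM labelled CKO and WT.

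In lymphoid cells outside the B lineage Cybb was near the limit of what was counted. T-like cells had 44 UMIs (15.3 CPM) labelled CKO and 16 UMIs (7.36 CPM) labelled WT, and natural killer-like (NK-like) cells 16 UMIs and 1 UMI. The T-like value labelled CKO rested in good part on the 22 cycling cells led by Hist1h1b and Pclaf, which held 20 of its 44 UMIs. Intervals of T-like, group 2 innate lymphoid-like (ILC2-like) and NK-like cells overlapped in each library. Group 3 innate lymphoid-like (ILC3-like) cells had 21 UMIs (41.5 CPM, 25.7 to 63.5) labelled CKO and 8 UMIs (33.7 CPM) labelled WT. B cell RNA in the proportion of Cd79a and Ms4a1 would bring 30.5 CPM of Cybb to those labelled CKO and 32.9 CPM to those labelled WT.

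Cyba, whose product p22phox holds gp91phox in place and also serves other NOX enzymes, was spread more evenly. It had 1582 CPM in monocyte and macrophage-like cells labelled CKO, 987 CPM in dendritic-like cells labelled CKO and 742 CPM in those labelled WT. Neutrophil-like cells had 746 CPM labelled CKO and 510.4 CPM labelled WT. Across T-like, NK-like, ILC2-like, ILC3-like, B-like and plasma-like cells it ran between 357 and 657 CPM labelled CKO and between 326 and 693 CPM labelled WT. Fibroblast-like cells labelled CKO still had 277 CPM.

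**Figure D1:**
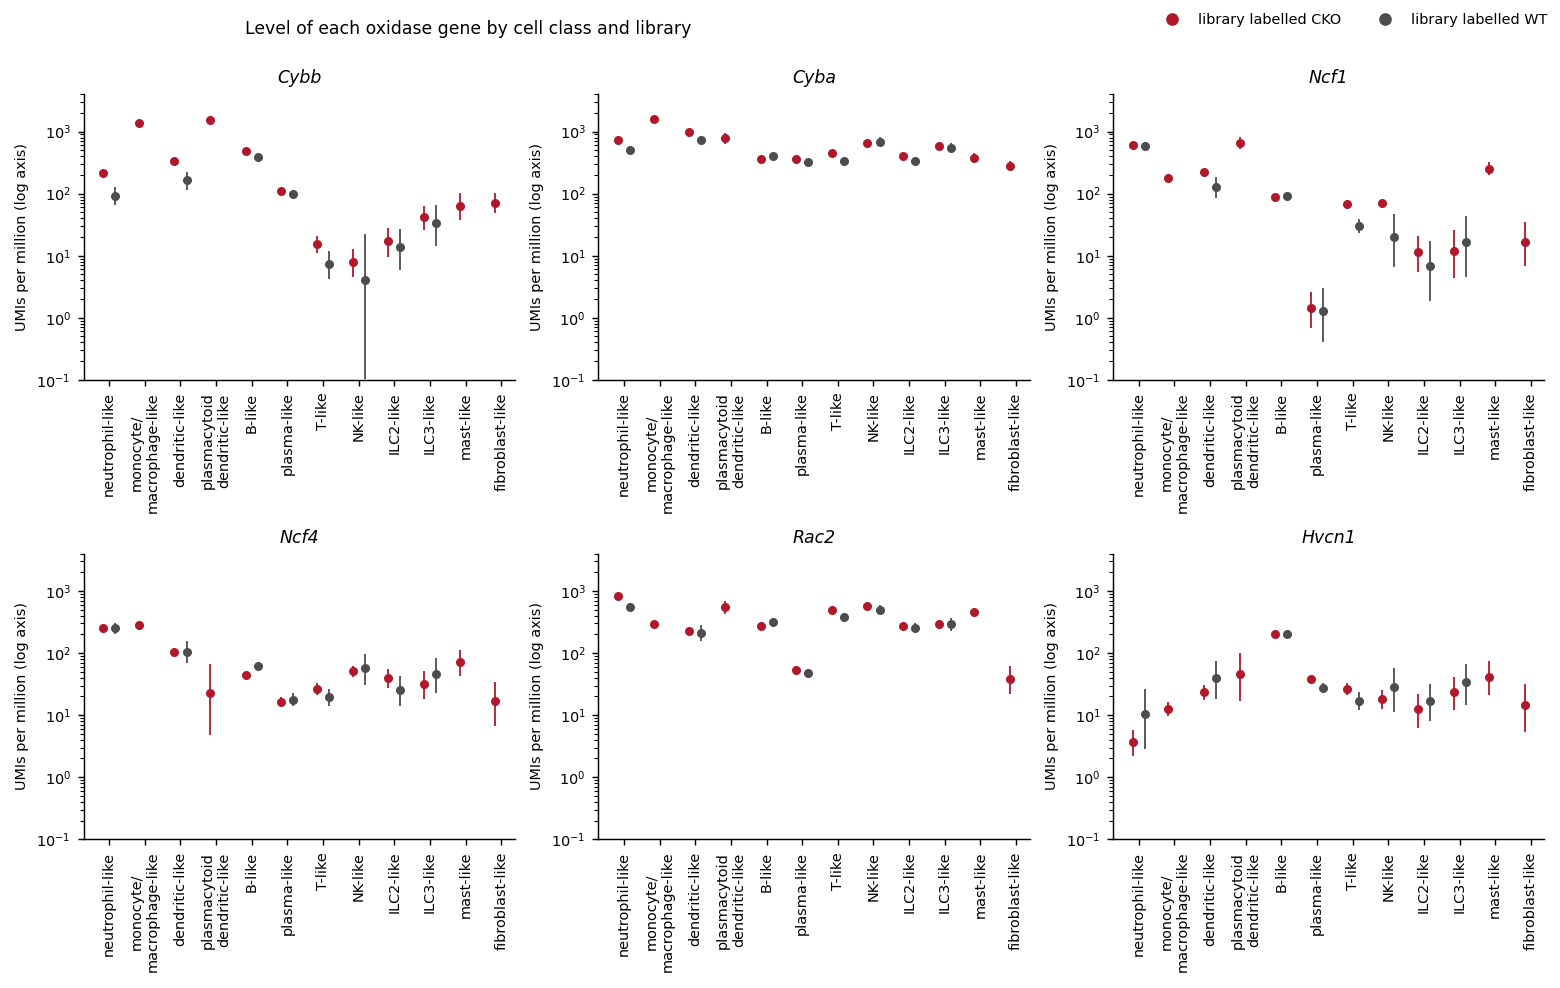
Level of each oxidase gene in UMIs per 1000000 (log axis) by cell class, for the libraries labelled CKO (red, left) and WT (grey, right); points are sums over a class with at least 20 cells, bars exact 95% counting intervals. Cybb spans from 8.04 CPM in NK-like to 1568 CPM in plasmacytoid dendritic-like cells labelled CKO, Cyba from 277 to 1582 CPM, and Hvcn1 peaks in B-like cells at 200.2 CPM labelled CKO and 204 CPM labelled WT.

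Ncf1, the phosphorylated organizer subunit, had its highest level among the larger classes in neutrophil-like cells, where the libraries were close: 3213 UMIs (613 CPM) labelled CKO and 230 UMIs (596 CPM) labelled WT. Plasmacytoid dendritic-like cells labelled CKO had 665 CPM (533 to 821), an interval that overlaps the neutrophil-like one. Dendritic-like cells had 223 CPM labelled CKO and 128 CPM labelled WT, and monocyte and macrophage-like cells labelled CKO 177 CPM. B-like cells had 88.3 CPM labelled CKO and 91.3 CPM labelled WT. Plasma-like cells had 10 UMIs (1.44 CPM) labelled CKO and 5 UMIs (1.27 CPM) labelled WT, the lowest level of any member in a class of that size. Ncf1 in 55 mast-like cells labelled CKO was 253 CPM, beside 10668 CPM of the neutrophil genes S100a8 and S100a9. Neutrophil RNA in that proportion would bring 47.8 CPM of Ncf1.

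Ncf4, which encodes the phosphoinositide-binding p40phox, was shared by both phagocyte classes, the neutrophil-like and the monocyte and macrophage-like: 249 CPM labelled CKO and 251 CPM labelled WT in the first class, and 282 CPM labelled CKO in the second. Dendritic-like cells had 104 CPM labelled CKO and 106 CPM labelled WT. B-like cells had 44.5 CPM labelled CKO and 61.4 CPM labelled WT. Plasmacytoid dendritic-like cells labelled CKO, first in Cybb, had only 3 UMIs of Ncf4 (22.9 CPM, 4.73 to 67.0). Thus Ncf1 and Ncf4, whose proteins sit in the same cytosolic complex, were far apart in that class and close in rank in neutrophil-like cells.

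Rac2, the GTPase of blood cells that activates the oxidase and also steers actin, had 831 CPM in neutrophil-like cells labelled CKO and 559.6 CPM in those labelled WT. NK-like cells had 566 CPM labelled CKO and 503 CPM labelled WT, the 22 plasmacytoid dendritic-like cells labelled CKO 551 CPM (431 to 693), and T-like cells 499 CPM labelled CKO and 380.2 CPM labelled WT. Plasma-like cells had 52.8 CPM labelled CKO and 47.8 CPM labelled WT, below every other class of blood cells with 20 cells or more. Fibroblast-like cells labelled CKO had 16 UMIs (38.2 CPM).

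Hvcn1, the voltage-gated proton channel, had another pattern. B-like cells held 3067 UMIs (200.2 CPM) labelled CKO and 972 UMIs (204 CPM) labelled WT, while neutrophil-like cells held 19 UMIs (3.63 CPM) labelled CKO and 4 UMIs (10.4 CPM) labelled WT. Monocyte and macrophage-like cells labelled CKO had 12.7 CPM, and plasma-like cells 37.8 CPM labelled CKO and 27.7 CPM labelled WT. B cell RNA measured by Cd79a and Ms4a1 would bring 0.989 CPM of Hvcn1 to the neutrophil-like cells labelled CKO and 3.24 CPM to those labelled WT.

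Set against B-like cells of the same library, 4 of the 6 genes were at least 1.5-fold higher in neutrophil-like cells labelled CKO, where 18.5% of all genes read were, and 2 were lower, where 67.4% of all genes were. The 4 were Ncf1 (6.95-fold), Ncf4 (5.61-fold), Rac2 (3.04-fold) and Cyba (2.09-fold). The other two were higher in B-like cells: Cybb by 2.23-fold and Hvcn1 by 55.2-fold. In cells labelled WT, 3 members were higher in neutrophil-like cells (16.9% of all genes) and 2 lower (56.8%), with Ncf1 at 6.52-fold and Ncf4 at 4.09-fold. Monocyte and macrophage-like cells labelled CKO had 4 members higher than B-like cells (27.8% of all genes) and 1 lower (46.1%): Ncf4 was 6.35-fold, Cyba 4.43-fold, Cybb 2.83-fold and Ncf1 2.002-fold higher, Rac2 1.10-fold, and Hvcn1 was lower.

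Dendritic-like cells had 3 members higher than B-like cells in those labelled CKO (26.7% of all genes), Cyba, Ncf1 and Ncf4 at 2.35-fold to 2.76-fold, and 1 lower (38.9%), Hvcn1. Those labelled WT had 2 higher (21.9%), Cyba at 1.83-fold and Ncf4 at 1.73-fold, and 2 lower (32.7%), Cybb and Hvcn1. NK-like cells had 2 higher in both libraries, Cyba and Rac2 (25.0% of all genes labelled CKO and 25.3% labelled WT), and Cybb and Hvcn1 among the lower (29.0% and 26.0%). T-like cells labelled CKO had 1 higher (29.7%), Rac2 at 1.82-fold, and 3 lower (19.9%), with Cybb 31.3-fold higher in B-like cells; those labelled WT had 0 higher (23.9%) and 4 lower (19.5%). Plasma-like cells, which descend from B cells, had 0 higher in either library (11.9% labelled CKO and 11.1% labelled WT) and 5 lower in each (71.0% and 71.9%), all but Cyba; Ncf1 was 61.4-fold higher in B-like cells labelled CKO.

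The relative amounts of the transcripts therefore differed between the phagocyte classes. Among the UMIs of the 6 genes in neutrophil-like cells, Cybb made up 8.09% labelled CKO and 4.62% labelled WT, and Ncf1 23.1% and 29.5%. Monocyte and macrophage-like cells labelled CKO gave 36.6% of theirs to Cybb and 4.76% to Ncf1. B-like cells gave 33.2% to Cybb labelled CKO and 26.3% labelled WT.

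Counted over whole libraries, B-like cells held 30.05% of all Cybb UMIs labelled CKO and 47.6% of those labelled WT. Monocyte and macrophage-like cells held 26.1% of Cybb UMIs labelled CKO and 4.05% labelled WT, and neutrophil-like cells 4.60% and 0.936%. For Ncf1 the neutrophil-like share was 38.5% labelled CKO and 20.1% labelled WT. Hvcn1 UMIs lay mainly in B-like cells, with 69.0% labelled CKO and 55.9% labelled WT. Droplets of mixed classes held 29.4% of Cybb UMIs labelled CKO and 22.2% labelled WT.

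**Figure D2:**
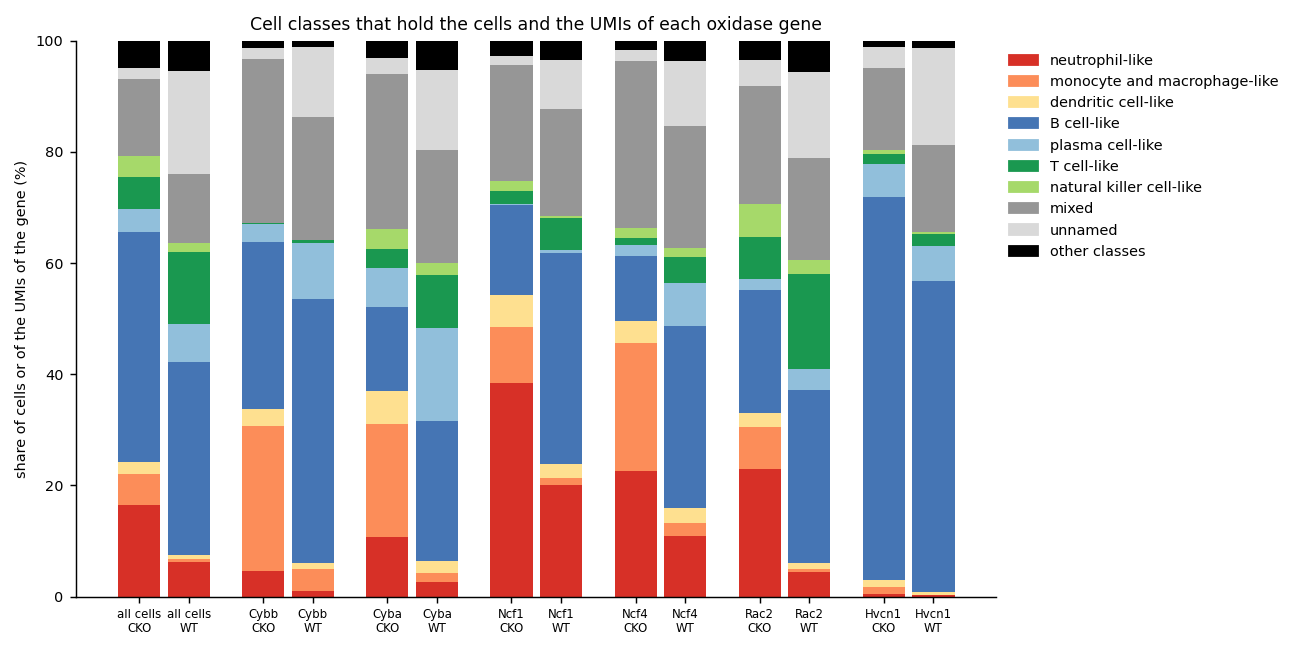
Share (%) of all cells and of the UMIs of each oxidase gene that lay in each cell class, as stacked bars for the libraries labelled CKO (left of each pair) and WT (right). Neutrophil-like cells held 38.5% of Ncf1 UMIs labelled CKO and 20.1% labelled WT but under 5% of Cybb UMIs in each library, and B-like cells held most Hvcn1 UMIs.

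The neutrophil-like class was not uniform, and its sub-clusters are named by their leading genes. In the library labelled CKO, Cybb had 380 CPM in the sub-cluster led by Cxcl10 and Ifit2, genes that interferons induce, against 189 CPM in the other neutrophil-like cells (8.97% of all genes were higher there by 1.5-fold). It had 344 CPM in the Cxcl1 and Il23a sub-cluster, against 201 CPM in the rest (29.8% of genes higher). The lowest Cybb level, 123 CPM, was in the Cxcl3 and Dusp6 sub-cluster of 505 cells, against 253 CPM in the rest (18.9% of genes lower). The Osgin1 and Atf3 sub-cluster had 152 CPM against 236 CPM (19.2% of genes lower).

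Ncf1 was highest in the sub-cluster where Rac2 was lowest, and lowest where Rac2 was highest. The Cxcl1 and Il23a sub-cluster had 884 CPM of Ncf1 against 585 CPM in the rest and 562 CPM of Rac2 against 859.7 CPM (20.1% of genes lower), while the sub-cluster led by Ngp and Camp, granule genes of immature neutrophils, had 458 CPM of Ncf1 and 1067 CPM of Rac2. Cyba was also highest in the Ngp and Camp sub-cluster, at 1078 CPM against 670.5 CPM in the rest (19.3% of genes higher). All 200 cells of that sub-cluster came from the library labelled CKO. Hvcn1 had between 1 and 8 UMIs in each sub-cluster, too few to order them.

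Among monocyte and macrophage-like cells labelled CKO, Cybb had 1469 CPM in the sub-cluster led by Nos2 and Cxcl9, 1321 CPM in that led by the complement genes C1qa and C1qc, and 1142 CPM in that led by Vcan and Chil3, genes of monocytes. The 22 cells led by Prg4, Serpinb2 and Alox15 had 2413 CPM of Cybb against 1324 CPM in the rest, with 853 CPM of Cyba against 1605 CPM and only 4 UMIs of Ncf4 (27.7 CPM) against 290.1 CPM. In that sub-cluster 21.5% of all genes were higher and 28.5% lower than in the rest of the class. Hvcn1 had 36 UMIs (28.8 CPM) in the C1qa sub-cluster and 6.93 CPM in the rest (18.0% of genes higher). It was lower than in the rest in the Nos2 sub-cluster, with 16 UMIs (22.2% of genes lower), and in the Vcan sub-cluster, with 6 UMIs (15.0% lower).

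Dendritic-like cells were divided in Cybb. In the library labelled CKO, the sub-cluster led by Cxcl10 and Cd209a had 726 CPM against 165 CPM in the rest (15.6% of genes higher), and 353 CPM of Rac2 against 173 CPM, with Hvcn1 lower on 5 UMIs (23.0% of genes lower). That led by Mki67 had 448 CPM of Cybb, 634 CPM of Cyba against 1067 CPM in the rest (20.4% of genes lower) and 49.5 CPM of Hvcn1 against 17.8 CPM (18.2% higher). The 65 cells led by Xcr1, the chemokine receptor of type 1 conventional dendritic cells, had 22 UMIs of Cybb (28.1 CPM) against 512 CPM in the other dendritic-like cells, where 26.9% of all genes were lower. Ncf1 was also lower in them, at 104 CPM against 289 CPM, and Hvcn1 had 1 UMI, while Cyba, at 827 CPM against 1076 CPM, and Ncf4, at 119 CPM against 96.5 CPM, were within 1.5-fold of the rest. In the library labelled WT, the 9 cells of the Xcr1 sub-cluster had 1 UMI of Cybb and 114 of Cyba, and the 8 cells of the Cxcl10 and Cd209a sub-cluster 27 UMIs of Cybb and 41 of Cyba. Spi1 itself was at 431 CPM in the Xcr1 cells labelled CKO, near the 385 CPM of the whole class.

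The 45 dendritic-like cells labelled CKO led by Fscn1, a gene of mature dendritic cells, had a different set again. Cybb was at 141 CPM against 375 CPM in the rest of the class. Cyba was at 1521 CPM against 894 CPM in the rest of the class, and Ncf1 at 385 CPM against 195 CPM, with 23.6% of all genes higher. Ncf4 was at 21.4 CPM against 119 CPM, and Rac2 at 33.6 CPM against 263 CPM, with 33.1% of all genes lower. Hvcn1 was at 79.4 CPM against 13.9 CPM. No cell of this sub-cluster carried the label WT.

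**Figure D3:**
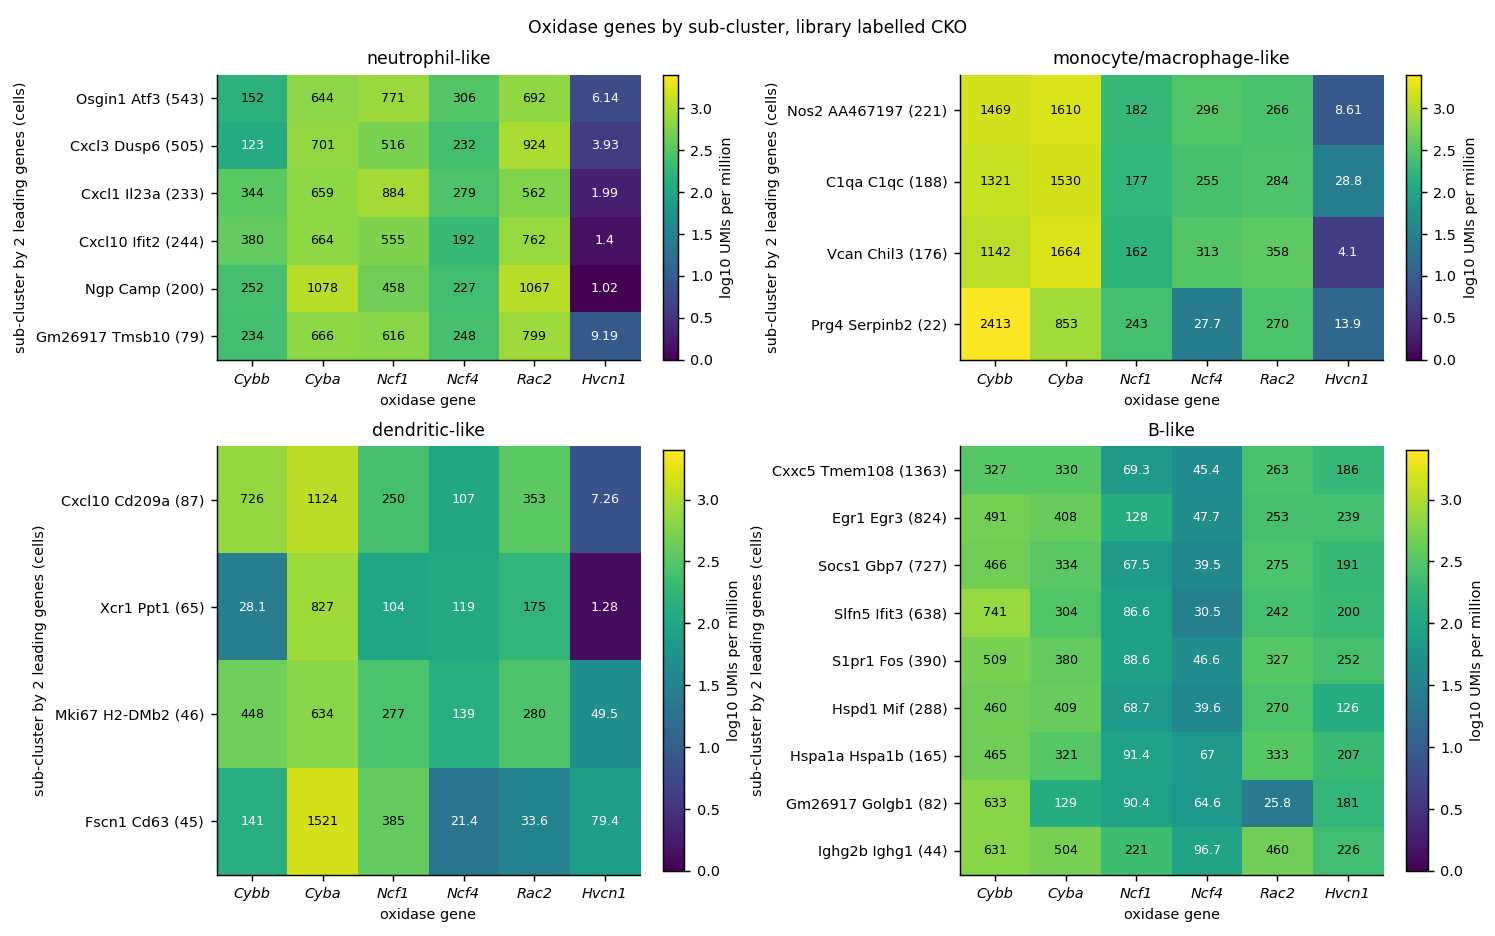
UMIs per 1000000 of the 6 oxidase genes (columns; colour on a log10 scale, value printed) in sub-clusters with at least 20 cells labelled CKO (rows, by leading genes and number of cells) of 4 classes. Cybb runs from 28.1 CPM in Xcr1 cells to 726 CPM in Cxcl10 and Cd209a cells of the dendritic-like class, while Cyba stays at 634 CPM or more there.

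In B-like cells Cybb followed the interferon sub-cluster as well. The 638 cells labelled CKO led by Slfn5 and Ifit3 had 741 CPM against 439 CPM in the other B-like cells, where 7.45% of all genes were higher. The largest sub-cluster, 1363 cells led by Cxxc5, had 327 CPM against 534 CPM in the rest, where 10.1% of genes were lower. Ncf4 was lower in the interferon cells, at 30.5 CPM against 46.6 CPM (10.7% of genes lower). Ncf1 had 221 CPM in the 44 cells led by the antibody heavy chain genes Ighg2b and Ighg1, against 84.7 CPM in the rest (21.7% of genes higher); Ncf4 and Rac2 were higher there too. Ncf1 had 128 CPM in the cells led by the early response genes Egr1 and Egr3, against 79.8 CPM (6.51% of genes higher). The heat shock cells led by Hspa1a had 67.0 CPM of Ncf4 against 43.7 CPM (17.0% higher). Hvcn1 was steadier, between 126 CPM (Hspd1 and Mif, where 20.7% of genes were lower than in the rest) and 252 CPM (S1pr1 and Fos). The 82 cells led by Gm26917 and Golgb1, with nuclear RNAs such as Malat1 and Neat1 among their leading genes, had 25.8 CPM of Rac2 on 2 UMIs and 129 CPM of Cyba on 10 UMIs, both lower than in the rest (13.2% of genes lower).

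Within the T-like class Ncf1 was concentrated in cells led by Xcl1 and Klra7, which are genes shared with innate lymphocytes. This sub-cluster had 112 UMIs of Ncf1 (143 CPM) labelled CKO and 39 UMIs (86.5 CPM) labelled WT. The sub-cluster led by Gzma and Cd200r2 had 38 UMIs (169.6 CPM) labelled CKO from 49 cells and 1 UMI labelled WT from 1 cell. The sub-cluster led by Igfbp4, Myb and Lef1 had 1 UMI labelled CKO and 4 UMIs labelled WT. Among NK-like cells labelled CKO, the 42 cells led by Ifng and Csf2 had 43 UMIs of Ncf1 (259.9 CPM), and the 180 cells led by Myb, Ccl5 and Gzma 34 UMIs (36.4 CPM).

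The comparison of the libraries asks how the oxidase genes stood in colitis in cells labelled CKO, set against cells labelled WT, in the 8 classes that had 20 or more cells under each label. A ratio is given where a gene had at least 20 UMIs over both libraries, and is called at 1.5-fold. In neutrophil-like cells 1 of the 6 genes was called higher, where 20.2% of all 6254 genes read were, and 1 lower, where 26.0% were; a count of this size is near or below the background. Cybb was higher in cells labelled CKO, with 1127 UMIs (215 CPM, 1804 cells) labelled CKO and 36 UMIs (93.3 CPM, 181 cells) labelled WT, a log2 ratio of 1.21 (0.73 to 1.73). Rac2 (log2 0.57, 0.37 to 0.77) and Cyba (log2 0.55, 0.34 to 0.76) lay just inside the 1.5-fold limit, and Ncf1 (0.04) and Ncf4 (-0.01) had intervals that hold 0. Hvcn1 was the gene called lower, at log2 -1.51 on 19 and 4 UMIs, with an interval (-3.10 to 0.50) that holds 0.

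The sub-clusters that make up the neutrophil-like class differed between the libraries: the Osgin1 and Atf3 sub-cluster held 543 of 1804 cells labelled CKO and 125 of 181 labelled WT, and the Cxcl3 and Dusp6 sub-cluster 505 and 6. Within the Osgin1 and Atf3 sub-cluster Cybb was at 152 CPM labelled CKO and 59.1 CPM labelled WT (log2 1.36, 0.61 to 2.23). Within the Cxcl1 and Il23a sub-cluster it was at 344 CPM labelled CKO and 111 CPM labelled WT (log2 1.64, 0.49 to 3.11). In the Cxcl10 and Ifit2 cells it was at 380 CPM labelled CKO (244 cells) and 348 CPM labelled WT (14 UMIs, 16 cells). The neutrophil-like cells labelled WT carried more plasma cell marker RNA, 2549 CPM labelled CKO and 7174 CPM labelled WT, and less neutrophil marker RNA; the part of this in the ratios was not tested. With the mixed sub-clusters kept the log2 ratio of Cybb was 0.70.

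In dendritic-like cells, 2 genes were called higher, where 23.5% of all genes were, and 1 lower, where 13.1% were. Cybb had 749 UMIs (340.2 CPM, 243 cells) labelled CKO and 37 UMIs (164 CPM, 22 cells) labelled WT, a log2 ratio of 1.06 (0.58 to 1.57). Ncf1 had 491 UMIs (223 CPM) labelled CKO and 29 UMIs (128 CPM) labelled WT, log2 0.80 (0.26 to 1.39). Marker RNA of other cells was also higher labelled CKO: S100a8 was at 45.0 CPM labelled CKO and 4.42 CPM labelled WT, Igkc at 1068 and 698 CPM, and Jchain at 222 and 97.2 CPM, and their part in these ratios was not tested. Leaving out the cell with most Cybb UMIs from each library moved the log2 ratio of Cybb to 1.91. The sub-clusters, which differed widely in Cybb, also took unlike shares: the Xcr1 cells were 65 of 243 labelled CKO and 9 of 22 labelled WT, and the Fscn1 cells 45 and 0.

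B-like cells gave the most precise ratios and no call: 0 of the 6 genes were higher, where 5.29% of all genes were, and 0 lower, where 7.58% were. Cybb was higher labelled CKO by log2 0.32 (0.25 to 0.40), a 1.25-fold difference, and Ncf4 lower by log2 -0.47 (-0.67 to -0.26). Rac2 (log2 -0.21, -0.29 to -0.12) and Cyba (log2 -0.18, -0.26 to -0.11) were lower too. Ncf1 (-0.05) and Hvcn1 (-0.02) had intervals that hold 0 and lie within 0.21 of it. By sub-cluster the Hvcn1 ratio ran from log2 -0.14 (-0.58 to 0.30) in the Ighg2b and Ighg1 cells to 0.92 (0.37 to 1.53) in those led by Socs1 and Gbp7. The Cybb ratio was not the same in all sub-clusters: log2 0.57 (0.32 to 0.83) in the Cxxc5 cells and 0.52 (0.36 to 0.69) in the S1pr1 and Fos cells, but -0.03 (-0.19 to 0.14) in the interferon cells led by Slfn5, which had 741 CPM labelled CKO and 754 CPM labelled WT. The sub-clusters took unlike shares of the B-like class too. The Cxxc5 cells, low in Cybb, were 1363 of 4521 labelled CKO and 169 of 1017 labelled WT. The S1pr1 and Fos cells were 390 and 287. The part of these shares in the ratios of the whole class was not tested. Plasma-like cells gave 0 calls of 5 genes read, where 6.98% of all genes were higher and 9.91% lower.

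In T-like cells 3 of the 6 genes were called higher, where 12.8% of all genes were, and 0 lower, where 7.75% were; the members' median log2 ratio was 0.56, beside 0.06 over all genes. Ncf1 had 199 UMIs (69.3 CPM) labelled CKO and 66 UMIs (30.3 CPM) labelled WT, a log2 ratio of 1.19 (0.78 to 1.62). Within the Xcl1 and Klra7 sub-cluster, which held most of these UMIs, the log2 ratio was 0.72, and with sub-clusters weighted alike it was 0.78. Cybb (log2 1.06, 0.20 to 1.98) and Hvcn1 (log2 0.66, 0.07 to 1.26) rested on fewer UMIs, 44 and 16 for Cybb and 77 and 37 for Hvcn1, labelled CKO and WT. Of the 44 Cybb UMIs labelled CKO, 20 lay in the 22 cycling cells led by Hist1h1b and Pclaf (67.9 CPM). The Cybb call thus need not hold across the class, and the ratio without those cells is not given here. With mixed sub-clusters kept, Cybb in T-like cells was at log2 -0.0011 and Hvcn1 at 0.05, both within 1.5-fold, and Ncf1 at log2 0.70. As a mean over cells Ncf1 was at log2 1.32, with Cybb at 0.40 and Hvcn1 at 0.51, both within 1.5-fold. The T-like sub-cluster led by Il22 and Areg had 3 markers of the ILC3 list among its 10 leading genes. That led by Foxp3 and Il1rl1 had 3 of the ILC2 list. Leaving both out changed no count of calls, and the share of all genes called without them is not given here.

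Marker RNA of other cells moved between the libraries in T-like cells too. S100a8, a neutrophil gene, was at 60.9 CPM labelled CKO and 10.6 CPM labelled WT, and the plasma cell list at 2016 CPM labelled CKO and 11866 CPM labelled WT. Neutrophil RNA in the proportion of S100a8 and S100a9 would bring 0.745 CPM of Ncf1 to T-like cells labelled CKO and 0.353 CPM to those labelled WT, against 69.3 and 30.3 CPM measured. B cell RNA in the proportion of Cd79a and Ms4a1 would bring 4.51 CPM of Cybb labelled CKO and 6.35 CPM labelled WT, against 15.3 and 7.36 CPM measured, so the T-like Cybb level labelled WT is near that background.

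NK-like cells had 1 gene called higher, where 16.8% of all genes were, and 1 lower, where 13.6% were, of 5 read. Ncf1 had 141 UMIs (70.9 CPM, 402 cells) labelled CKO and 5 UMIs (20.3 CPM, 45 cells) labelled WT, log2 1.81 (0.55 to 3.45). The Ifng and Csf2 sub-cluster, with 43 of those 141 UMIs, held 42 cells labelled CKO and 0 labelled WT, and a further sub-cluster led by Cd7, Cd3g and Cd3d, which carries T cell markers, held 74 and 4. Hvcn1, the gene called lower, had 36 and 7 UMIs labelled CKO and WT and an interval that holds 0. ILC2-like cells had 1 gene called higher, Ncf4 on 35 UMIs labelled CKO and 15 labelled WT (log2 0.64, an interval of -0.27 to 1.61 that holds 0), where 13.8% of all genes were higher, and 0 lower (12.3%). No gene was called higher there at a 2-fold limit, with at most 10% mitochondrial UMIs, with at least 1000 UMIs per cell, at clustering resolution 2, without cells that hold markers of another class, or with CPM taken without immunoglobulin, mitochondrial and ribosomal genes. The share of all genes called under each of these settings is not given here. ILC3-like cells had 0 higher (13.0%) and 0 lower (14.1%) of 5 read.

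**Figure D4:**
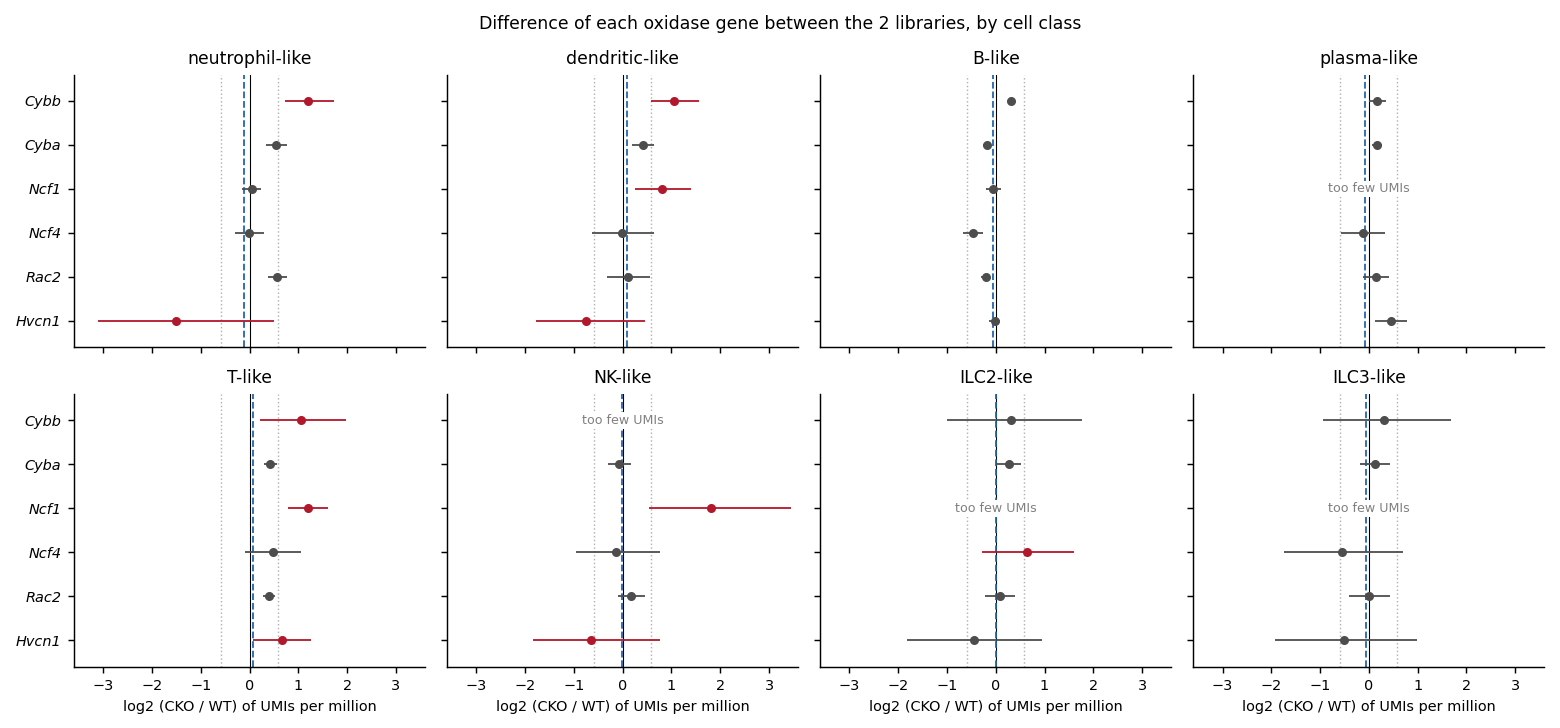
Log2 ratio of UMIs per 1000000, CKO over WT, for each oxidase gene (rows) in 8 cell classes (panels); bars are exact 95% counting intervals, dotted lines mark 1.5-fold, the dashed blue line is the median of all genes read and red points are called. Cybb is right of the limit in neutrophil-like (1.21), dendritic-like (1.06) and T-like cells (1.06), Ncf1 in dendritic-like (0.80), T-like (1.19) and NK-like cells (1.81).

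Over all cells of a library, without regard to class, 4 genes were called higher, where 17.3% of all genes were, and 0 lower, where 12.5% were. Ncf1 was at 149.8 CPM labelled CKO and 61.7 CPM labelled WT (log2 1.28), Ncf4 at 104 and 48.3 CPM (log2 1.11), Cybb at 439 and 207 CPM (log2 1.08) and Cyba at 656 and 413 CPM (log2 0.67). For Ncf1 and Ncf4 the ratio over all cells was larger than in neutrophil-like or B-like cells, and the shares of both phagocyte classes among cells, given above, differed in the same direction. Hvcn1 was at 79.8 CPM labelled CKO and 93.7 CPM labelled WT.

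Monocyte and macrophage-like cells could be compared only with mixed sub-clusters kept, which gave 1180 cells labelled CKO and 50 labelled WT. On that base Cybb was at 1121 CPM labelled CKO and 837 CPM labelled WT (log2 0.42), Cyba at 1405 and 909 CPM (log2 0.63), and Ncf1 at 185 and 111 CPM (log2 0.74). Ncf4 (log2 0.40) and Rac2 (log2 0.29) were within 1.5-fold. Hvcn1 went the other way, at 19.9 CPM labelled CKO and 38.1 CPM labelled WT (log2 -0.94, -1.60 to -0.20). These cells include droplets with T, B, neutrophil and plasma cell markers, and the part of these droplets in the ratios was not tested.

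Shares of cells with a UMI were compared after thinning each cell to 1000 UMIs, which left out 75 of 1804 neutrophil-like cells labelled CKO and 22 of 181 labelled WT. At that depth 14.1% (12.4 to 15.8) of neutrophil-like cells labelled CKO and 6.29% (3.06 to 11.3) of those labelled WT had a UMI of Cybb; without thinning, 27.0% and 12.2% had it, with 2579.5 and 2039 UMIs in the median cell. In T-like cells, taken as background, the thinned Cybb share was 1.29% labelled CKO and 0.538% labelled WT, with 3875.5 and 4702 UMIs in the median cell. Cyba was in 47.7% of neutrophil-like cells labelled CKO and 34.0% of those labelled WT, Rac2 in 51.2% and 40.3%, and Ncf1 in 42.5% and 45.9%. For Ncf1 the background was the plasma-like class, with 0.441% labelled CKO and 0 of 198 cells labelled WT, with an exact upper bound of 1.85%. At 1000 UMIs the intervals of the libraries in neutrophil-like cells were apart for Cybb, Cyba and Rac2. Thinned to 2000 UMIs, those of Cybb overlapped, at 22.4% (20.1 to 24.7) labelled CKO and 13.7% (7.49 to 22.3) labelled WT. Those of Cyba and Rac2 stayed apart at that depth. The share of all genes with intervals apart is not given here, so these overlaps are not read as results about the members.

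Monocyte and macrophage-like cells labelled CKO had Cybb in 67.5% (63.5 to 71.3) and Cyba in 76.5% of cells at 1000 UMIs, and 94.9% and 95.2% unthinned. Of B-like cells, 34.2% (32.8 to 35.7) labelled CKO and 27.0% (24.2 to 29.9) labelled WT had a UMI of Cybb when thinned, and 64.6% and 63.9% unthinned, with 3005 and 4150 UMIs in the median cell. Hvcn1 was in 17.8% of B-like cells labelled CKO and 16.9% of those labelled WT when thinned, beside 0.636% and 0.629% of neutrophil-like cells. NK-like cells labelled CKO had Ncf1 in 6.85% of cells when thinned, and 0 of 45 labelled WT had it, with an exact upper bound of 7.87%.

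**Figure D5:**
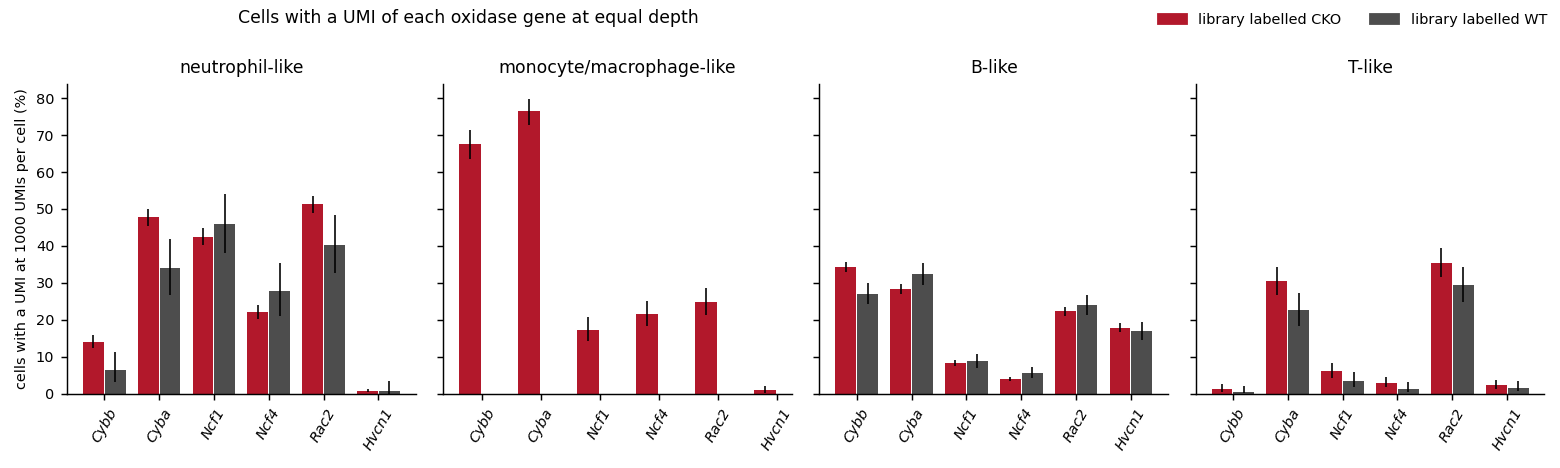
Share (%) of cells with at least 1 UMI of each oxidase gene after thinning every cell to 1000 UMIs, in the libraries labelled CKO (red, left) and WT (grey, right), with exact 95% binomial intervals; the monocyte and macrophage-like class had too few cells labelled WT. Cybb is in 14.1% of neutrophil-like cells labelled CKO and 6.29% labelled WT, and in 34.2% and 27.0% of B-like cells.

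Of the genes that are not members, Rac1, the related GTPase found in all tissues, was at 306 CPM labelled CKO and 259 CPM labelled WT in neutrophil-like cells, below Rac2 on the same scale. Cybc1, a chaperone that Cybb protein needs, was at 19.7 and 28.5 CPM in neutrophil-like cells labelled CKO and WT and at 48.6 and 46.5 CPM in B-like cells. The other NOX and DUOX genes, a list of 9, had too few UMIs to be read in any of the 8 classes compared. Epithelial-like cells, 19 labelled CKO and 3 labelled WT, were too few to compare. They held 17 of the 18 Duox2 UMIs labelled CKO and 2 of the 3 labelled WT. For Duoxa2 they held all 12 and all 5, and for Noxo1 10 of 45 and 8 of 16.

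Of 26 partners and activators of the oxidase, 24 were read in neutrophil-like cells, with 2 called higher labelled CKO and 3 lower, beside 20.2% and 26.0% of all genes, so calls were no more frequent in this list than over all genes; it had a median log2 ratio of -0.05 beside -0.12 for all genes. Pak1, a kinase that phosphorylates p47phox, was at 18.5 CPM labelled CKO and 80.3 CPM labelled WT (log2 -2.12, -2.71 to -1.48), and Pla2g4a, a phospholipase that frees arachidonic acid, had 19 UMIs labelled CKO and 5 labelled WT (log2 -1.84, -3.31 to -0.06). Arhgdib, which holds Rac proteins inactive, was at 526 CPM labelled CKO and 277 CPM labelled WT (log2 0.92). In B-like cells 0 of 24 were called in either direction, where 5.29% of all genes were higher and 7.58% lower. Of 11 receptors read in B-like cells, 5 were called higher and 0 lower, beside the same 5.29% and 7.58%. They were led by Fpr2 on 36 UMIs labelled CKO and 1 labelled WT. S100a8 was at 64.6 CPM labelled CKO and 7.33 CPM labelled WT in B-like cells, and the part of neutrophil RNA in these calls was not tested. Of 15 receptors that trigger the burst, 13 were read in neutrophil-like cells, with 3 called higher, a share near the 20.2% of all genes, and 1 lower, beside 26.0%. Fpr1, the receptor for bacterial formyl peptides, was at 861 CPM labelled CKO and 272 CPM labelled WT (log2 1.66), and Itgb2, the integrin chain shared by the leukocyte integrins, at 196 and 88.1 CPM (log2 1.15).

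Genes that handle oxidants showed calls both ways in neutrophil-like cells, with 4 higher labelled CKO and 8 lower of 17 read, beside 20.2% and 26.0% of all genes, and a median log2 ratio of -0.37 beside -0.12 for all genes. Lower were Txnrd1, the thioredoxin reductase, at 469 CPM labelled CKO and 1067 CPM labelled WT (log2 -1.19), and Gclc, an enzyme of glutathione synthesis, with 22 UMIs labelled CKO and 4 labelled WT (log2 -1.30) and an interval that holds 0. Prdx5, a peroxiredoxin, was higher, at 3158 CPM labelled CKO and 1469 CPM labelled WT (log2 1.10). Of 12 transcription factors of myeloid oxidase genes, 10 were read there, with 1 higher and 3 lower, beside the same 20.2% and 26.0%. Cebpd, a C/EBP family factor, was at 84.0 CPM labelled CKO and 184 CPM labelled WT (log2 -1.13). In dendritic-like cells Irf1 (log2 0.89) and Irf8 (log2 0.75) were higher and Cebpb (log2 -1.01) lower, and in B-like cells Irf1 was higher, at 247 CPM labelled CKO and 154 CPM labelled WT (log2 0.68). Spi1 followed the phagocytes, at 634 CPM in neutrophil-like, 568 CPM in monocyte and macrophage-like and 51.6 CPM in B-like cells labelled CKO.

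The genes most alike each member were ranked by Pearson's r of log2 levels over 20 profiles of class and library, among 8024 genes; profiles of the same class share cell type and those of the same library share depth, so r is a description. Cybb was nearest to Unc93b1 (r = 0.94), the escort of endosomal Toll-like receptors, followed by Ctsz (0.89) and Rubcnl (0.89). Ncf4 was nearest to AB124611 (0.92), Ggct (0.90) and Tlr13 (0.89), and Ncf1 to Dennd4b (0.91), Iqgap1 (0.91) and Cux1 (0.90). Rac2 was nearest to Atp11b (0.92), Gmfg (0.90) and Ptprc (0.90), the last of which encodes the leukocyte antigen CD45. Cyba was nearest to Pitpna (0.84), Ccl9 (0.84) and Vamp8 (0.83), and Hvcn1 to the B cell genes Tnfrsf13c (0.94) and Fcrla (0.92). Among the members themselves the highest r was that of Ncf1 and Ncf4 (0.70), while Cybb and Rac2 stood at -0.05 and Hvcn1 and Ncf4 at -0.24.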

How the data were processed

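Immune cells from inflamed mouse colon were profiled in 1 library labelled CKO and 1 library labelled WT. The deposited matrices hold raw UMI counts per gene and barcode, made with Cell Ranger 6.0.1 per the file headers; per the submitters' processing notes the tools were Cell Ranger 5.0.0 and Seurat 3.2.3, with mm10. No source used here says whether introns or strand were used.

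From 11311 barcodes labelled CKO (57740083 UMIs) and 2972 labelled WT (18627050 UMIs), those with fewer than 200 genes or more than 20% mitochondrial UMIs were left out. Scrublet marked 213 barcodes (1.91%) labelled CKO and 1 (0.0342%) labelled WT, so doublets labelled WT were in effect not removed. Cells were clustered with scanpy 1.11.5 and igraph 0.11.9 (2000 variable genes, 30 components, 15 neighbours, Leiden resolution 1) with the members left out. A cluster took the name of the class with the highest share of its fixed markers raised at least 2-fold and present in 20% of its cells; this naming rule was set after seeing the data. Sub-clusters with 2 or more leading genes of another class were kept apart as mixed.

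UMIs were summed per class and library and scaled to 1000000 (CPM). Intervals are exact Poisson, conditional binomial or Clopper-Pearson at 95% (scipy 1.17.1). UMI counting error is all they cover. With 1 library a condition there is no test; a gene was called at 1.5-fold with at least 20 UMIs over both libraries, in classes with 20 cells in each. The scripts were tested on simulated data. Genes named are the 6 members, up to 4 genes of each fixed list with the largest log2 ratio, Cybc1 and Rac1, and up to 3 genes most alike each member; Spi1 and the target Rpa1 were named beside these. Some genes the rule names are not reported here. The members and lists were chosen with earlier results of these data known. Alternatives changed doublets, filters, depth, resolution, scaling, weighting and the treatment of mixed cells.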

Additional observations from a re-analysis of the deposited data

How the results depend on the processing

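No paired analysis was possible because each condition is 1 library. The log2 ratio CKO over WT of Cybb ran from 0.70 (mixed sub-clusters kept) to 1.70 (at most 10% mitochondrial UMIs) in neutrophil-like cells, from 0.31 to 0.36 in B-like cells, and from 0.92 to 1.91 in dendritic-like cells. That of Ncf1 ran from 0.70 to 1.36 in T-like cells and from 0.63 to 2.43 in NK-like cells, the lowest value in each with mixed sub-clusters kept. Cybb in T-like cells changed sign with mixed sub-clusters kept (-0.0011, against 1.06). Of the values of single genes, 520 stayed, 15 moved and 1 changed sign; of the counts, 268 stayed and 34 moved.

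Counts of members called moved as follows, and the cause was not tested. The share of all genes called under each changed setting is not given here. The counts in this paragraph and the next are therefore not read as results about the members. At a 2-fold limit, 1 was higher and 0 lower in dendritic-like cells, 0 lower in NK-like and 0 higher in ILC2-like cells. In T-like cells Ncf1 (2.28-fold) and Cybb (2.08-fold) passed that limit and Hvcn1 (1.58-fold) did not. Over all cells of a library Cyba (1.59-fold) did not pass it. With at most 10% mitochondrial UMIs, 2 were higher and 0 lower in neutrophil-like cells, 1 higher in plasma-like and 0 in ILC2-like cells. With at least 1000 UMIs per cell, 1 was higher in plasma-like, 0 in ILC2-like and 1 lower in ILC3-like cells. At resolution 2, 1 was higher in plasma-like and 0 in ILC2-like cells. With CPM taken without immunoglobulin, mitochondrial and ribosomal genes, 0 were higher in ILC2-like cells. As a mean over cells, 2 were higher in neutrophil-like, 1 in T-like, 2 in ILC2-like and 1 in ILC3-like cells. Without the cell with most UMIs of the member in each library, 3 were higher in neutrophil-like, 2 in ILC2-like and 1 in ILC3-like cells, and 0 lower in dendritic-like, 0 in NK-like and 1 in ILC2-like cells. With sub-clusters weighted alike, 0 were lower in neutrophil-like and NK-like cells and 2 higher in ILC2-like cells. Thinned to 2000 UMIs, 3 members had a share of T-like cells above WT with intervals apart, against 0 at 1000. The Cybb intervals of neutrophil-like cells overlapped at 2000 UMIs, while at 1000 they were apart.

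Of the alternatives added after seeing the data, keeping mixed sub-clusters gave 3 higher in neutrophil-like, 1 in T-like and 2 in NK-like cells. Leaving out cells with at least 2 UMIs of another class's defining markers gave 2 higher in neutrophil-like, 2 in plasma-like and 0 in ILC2-like cells. Depth limits the small classes: Hvcn1 in neutrophil-like cells rests on 19 UMIs labelled CKO and 4 labelled WT.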
